A study of Sus scrofa with 12 samples.

Results

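The genes described are those of the circadian clock, the feedback loop of transcription factors by which nearly every mammalian cell keeps the time of day. They were looked for in RNA sequencing counts of Semimembranosus muscle, a large muscle of the ham, from 12 Italian Large White pigs. Members were the 10 genes PER1, PER2, PER3, CRY1, CRY2, ARNTL (also written BMAL1), CLOCK, NR1D1, NR1D2 and DBP. A gene entered where the pig Ensembl name table tied its symbol to an identifier with counts. This left 9 of the 25880 genes of the table, since PER3 had no identifier there, and all 9 passed the filter on low counts that left 14262 genes tested. The identifiers were ENSSSCG00000017983 for PER1, ENSSSCG00000016338 for PER2, ENSSSCG00000000164 for CRY1, ENSSSCG00000013270 for CRY2, ENSSSCG00000013397 for ARNTL, ENSSSCG00000008909 for CLOCK, ENSSSCG00000036933 for NR1D1, ENSSSCG00000027017 for NR1D2 and ENSSSCG00000003148 for DBP.

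Pigs 1 to 6 formed the high intramuscular fat (IMF) group and pigs 7 to 12 the low IMF group, purebred animals picked from the extremes of a larger test population, reared alike on 1 diet and given no treatment. By the labels they were 229 to 249 days old, 234 to 244 in the high and 229 to 249 in the low IMF group, with 3 females and 3 males in each group. The muscle was taken at a commercial slaughterhouse on several days, and which pigs shared a day, or at what hour each was taken, was not analysed here. Each pig gave 1 library, with 131048805 to 178013997 counts. Even the smallest of these sums is above the largest number of input reads that the authors list for a pig. Counts may therefore not be separate fragments, and the reason was not tested. Bulk muscle RNA cannot tell fewer cells of a type from less RNA per cell.

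In the loop, ARNTL and CLOCK bind DNA together and switch on the PER and CRY genes, whose proteins block them. They also switch on NR1D1 and NR1D2, which encode the repressors REV-ERBα and REV-ERBβ, and DBP, an activator of output genes. REV-ERB proteins in turn repress ARNTL, so that in tissues sampled around the clock ARNTL is known to peak when NR1D1 and DBP are low. In skeletal muscle the loop is known for timing genes of glucose and lipid use.

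The labels of single pigs carry a doubt. Counts on the Y chromosome genes EIF1AY and KDM5D, divided at 100 counts, went against the labelled sex in 6 of 12 pigs, 2 of the high IMF group (pigs 3 and 5) and 4 of the low IMF group (pigs 7 to 10). Results are therefore given with and without these pigs, also called the pigs of doubtful label. A match of Y counts and labelled sex does not show that a label is right, so the doubt is not limited to those pigs. Leaving them out therefore cannot tell which results hold under the right labels. Muscle genes were abundant, with the sum of ACTA1, CKM and TNNT3 (3 of 7 listed muscle markers with an identifier) at 29279 to 57738 CPM (a gene's count over the normalized library total of its pig, scaled alike in all pigs). The 5 adipocyte markers summed to 37.6 to 107 CPM in the high and 24.3 to 123 CPM in the low IMF group, and LEP (leptin) was at 0 in at least 1 pig of the low IMF group. The 2 red cell markers HBB and ALAS2 summed to 630.2 CPM in pig 6 and to at most 121.6 CPM in the others.

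Several members carry in their promoters the short elements through which the loop is known to work. Gene models were those of RefSeq on Sscrofa11.1, the build to which the authors aligned their reads. In the 250 bases before to 50 bases after each gene's annotated start, both strands were searched for the E-box CACGTG, which ARNTL and CLOCK bind, for the D-box TTATGTAA or TTATGCAA, which DBP binds, and for TAGGTCA, the core of the element bound by REV-ERB and ROR proteins. None of these motifs overlaps another. Of 19548 promoters of the same length, 7.92% held the E-box, 1.3% a D-box and 2.89% TAGGTCA. PER1 held an E-box, CRY2 and DBP held TAGGTCA, PER3 held an E-box and a D-box, and the windows at the gene start of PER2, CRY1, ARNTL, CLOCK, NR1D1 and NR1D2 held none of the 3. A match is a run of letters, not a measured binding site, and its absence says only that these letters are not in the window.

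Further transcript starts are annotated for these genes. All 4 starts of PER1 had an E-box in their window, against 1 of 4 for PER2, 2 of 4 for CRY1 and 1 of 3 for NR1D1, where the window of the start at chr12:22265335 held 2. These are not counts of separate elements. The PER1 starts at chr12:53376671, 53376704 and 53376723 share 1 E-box, and the CRY1 windows at chr5:13275546 and 13275549 overlap almost wholly. The share of 7.92% was taken with 1 window per gene and is no measure for several starts. The 5 runs of bases that follow stand before a start. PER1 and NR1D1 are shown as known E-box targets and CRY2 and DBP as the members with a REV-ERB core. ARNTL is shown as the activator whose window held no match. Each is written 5′ to 3′ on the gene's strand and ends at the base before the start, with the motif in capitals; the DBP run stops at an exon of its neighbour.
PER1 (chr12:53376724-53376973, minus strand, E-box from 93 bases before the start): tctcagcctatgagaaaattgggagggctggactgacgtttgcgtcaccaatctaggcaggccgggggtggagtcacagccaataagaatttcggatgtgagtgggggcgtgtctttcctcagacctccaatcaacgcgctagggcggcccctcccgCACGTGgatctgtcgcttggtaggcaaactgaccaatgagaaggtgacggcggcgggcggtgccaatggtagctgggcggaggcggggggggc
NR1D1 (chr12:22265085-22265334, plus strand, E-boxes from 168 and 153 bases before the start): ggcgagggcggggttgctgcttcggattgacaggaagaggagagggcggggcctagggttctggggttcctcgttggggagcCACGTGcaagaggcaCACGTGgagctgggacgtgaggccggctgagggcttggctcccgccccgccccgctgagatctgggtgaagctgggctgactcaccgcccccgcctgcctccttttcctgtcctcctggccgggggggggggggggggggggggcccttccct
CRY2 (chr2:16620381-16620630, minus strand, TAGGTCA from 19 bases before the start): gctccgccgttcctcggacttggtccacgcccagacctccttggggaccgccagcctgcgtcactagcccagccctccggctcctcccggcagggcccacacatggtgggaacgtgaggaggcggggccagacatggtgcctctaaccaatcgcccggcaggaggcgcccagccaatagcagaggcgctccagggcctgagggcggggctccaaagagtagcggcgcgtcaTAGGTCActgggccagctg
DBP (chr6:53993045-53993182, minus strand, TAGGTCA from 42 bases before the start): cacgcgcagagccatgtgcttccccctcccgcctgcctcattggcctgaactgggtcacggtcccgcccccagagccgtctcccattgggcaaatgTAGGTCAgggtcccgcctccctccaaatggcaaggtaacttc
ARNTL (chr2:46025175-46025424, minus strand, no match): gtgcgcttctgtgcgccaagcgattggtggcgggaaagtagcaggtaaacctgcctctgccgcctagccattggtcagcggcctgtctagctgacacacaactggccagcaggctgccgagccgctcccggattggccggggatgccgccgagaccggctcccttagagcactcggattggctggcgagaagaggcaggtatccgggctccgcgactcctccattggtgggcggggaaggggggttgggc

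DBP, NR1D1, CRY2 and ARNTL spread most from pig to pig, and CLOCK, the partner of ARNTL, spread least. ARNTL, the core activator (chr2:45895637-46025174), had 2.51, 3.21, 3.72, 2.60, 6.01 and 3.51 CPM in pigs 1 to 6 and 2.17, 4.70, 2.66, 4.38, 3.47 and 1.24 CPM in pigs 7 to 12. Pig 5 of the high IMF group stood highest and pig 12 of the low IMF group lowest, and the groups overlapped. CLOCK, the DNA-binding partner of ARNTL (chr8:54793323-54910192), had 67.8, 54.3, 74.7, 59.4, 60.1 and 62.9 CPM in the high and 53.0, 68.6, 54.3, 88.2, 68.9 and 57.3 CPM in the low IMF group. Its highest pig, pig 10, had 1.66 times the level of its lowest.

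NR1D1 (chr12:22263549-22274131), which encodes REV-ERBα, had 21.2, 10.6, 21.2, 13.6, 3.55 and 15.2 CPM in pigs 1 to 6 and 7.57, 20.2, 21.1, 19.7, 18.4 and 15.9 CPM in pigs 7 to 12. NR1D2 (chr13:10756954-10791219), which encodes REV-ERBβ, had 283.3, 226.9, 406.6, 318.7, 128.5 and 267.6 CPM in the high and 233.3, 344.2, 302.6, 367.2, 318.0 and 240.2 CPM in the low IMF group. DBP (chr6:53986955-53993044), the D-box activator, had 9.52, 18.2, 22.3, 17.1, 3.48 and 14.1 CPM in the high and 12.2, 21.3, 17.2, 14.1, 18.0 and 5.37 CPM in the low IMF group. Pig 5 was the lowest of the 12 pigs for all 3 genes and the highest for ARNTL. The groups overlapped in all 3 genes.

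The inhibitors are the PER and CRY genes. PER1 (chr12:53361863-53376723), the period gene that also answers to glucocorticoid hormones, had 78.3, 117, 82.7, 84.2, 58.0 and 42.5 CPM in the high and 66.1, 163, 114, 107, 87.4 and 59.2 CPM in the low IMF group. PER2 (chr15:137793419-137837854), its paralogue, had 11.8, 19.8, 10.2, 11.06, 8.19 and 10.4 CPM and 12.4, 20.0, 18.9, 11.6, 11.9 and 14.3 CPM in the same order. In both genes pig 8 was highest. CRY2 (chr2:16587101-16620380), a cryptochrome that joins the PER proteins, had 73.8, 136.1, 88.5, 68.2, 60.7 and 45.7 CPM in the high and 64.8, 134.1, 160.1, 96.0, 61.9 and 159.2 CPM in the low IMF group. CRY1 (chr5:13275265-13429566), the other cryptochrome, had 14.6, 11.8, 12.8, 14.2, 13.8 and 14.6 CPM in the high and 8.88, 14.2, 11.11, 11.5, 9.27 and 10.2 CPM in the low IMF group. Pig 6, whose red cell markers stood apart, was the lowest pig for PER1 and CRY2, and the part of blood in these levels was not tested.

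**Figure D1:**
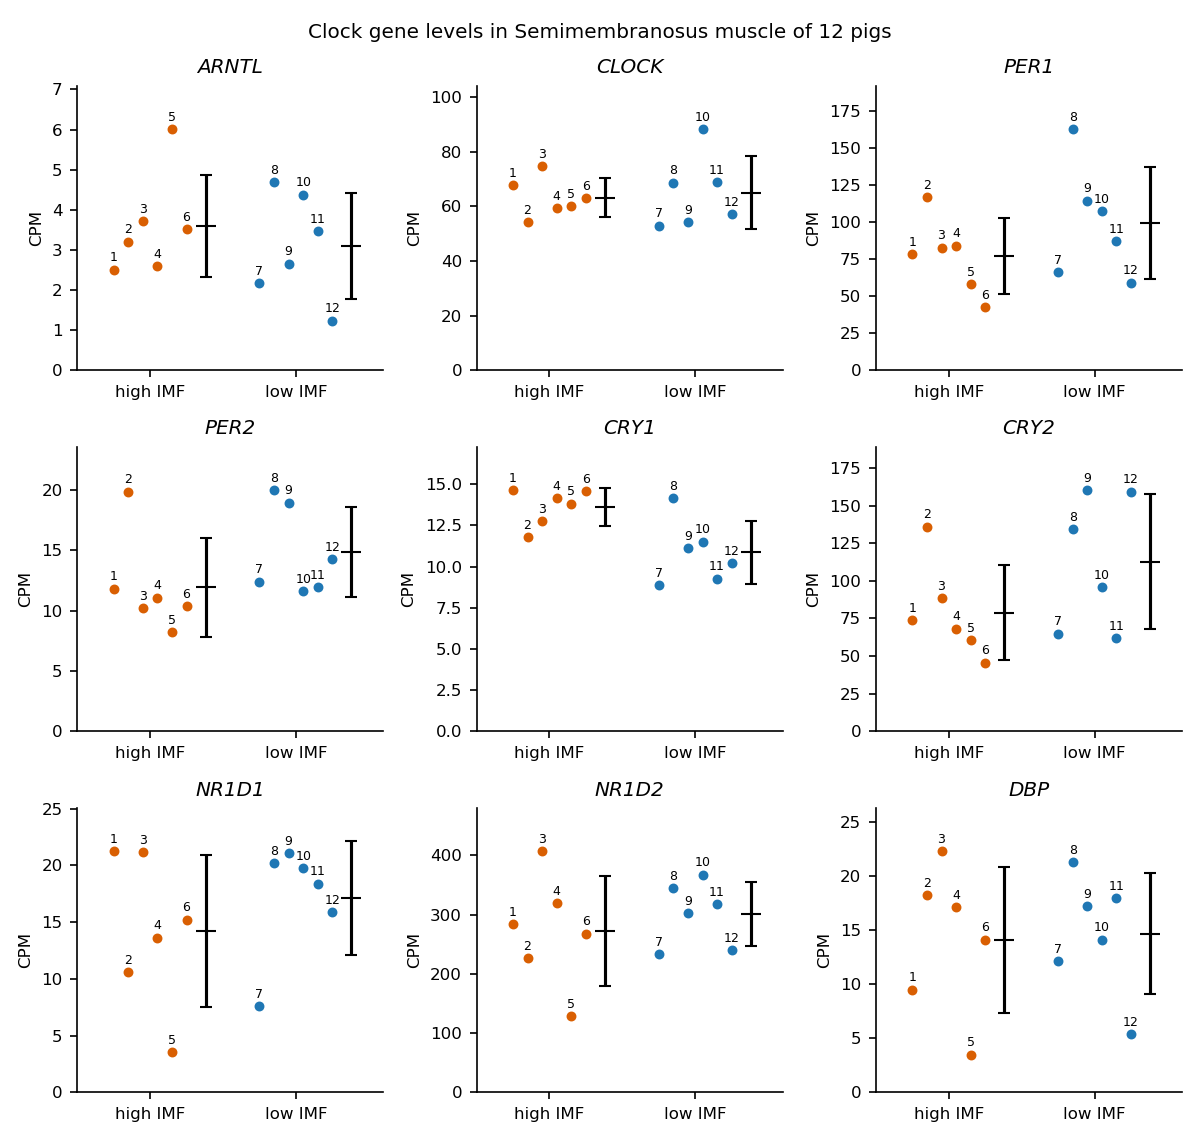
Levels of the 9 measured clock genes in CPM, each point being 1 pig with its number, high IMF pigs in orange and low IMF pigs in blue, and the black mark giving the mean with the SD of 6 pigs. The groups overlap in every gene, and pig 5 is the lowest for NR1D1, NR1D2 and DBP and the highest for ARNTL.

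Per kilobase of annotated exon, median levels over the 12 pigs ran from NR1D2 at 56.0 CPM per kilobase down through PER1 at 13.7, CRY2 at 12.4, CLOCK at 9.01, DBP at 5.59, NR1D1 at 2.36, PER2 at 1.56 and ARNTL at 1.02 to CRY1 at 0.710. PER1 and CRY2 were neighbours whose ranges overlapped almost wholly (6.95 to 26.6 and 7.00 to 24.5 CPM per kilobase), and the ranges of PER2 and ARNTL overlapped in part (1.07 to 2.62 and 0.378 to 1.83). The range of NR1D1 (0.488 to 2.92) spanned that of PER2, and that of CRY1 (0.514 to 0.846) lay within that of ARNTL. CLOCK (7.76 to 12.9) lay within CRY2 and PER1, and DBP (1.24 to 7.97) reached into CLOCK and NR1D1. Exon lengths were those of RefSeq, while the counts were made per Ensembl gene. NR1D2 overlapped only with PER1, in which the highest pig reached 26.6 against a lowest pig of 24.6 for NR1D2. The place of CRY1 is uncertain because its annotated exons, 17277 bases in all, include models that run on into 2397 exon bases of MTERF2 on the same strand. Reads from the opposite strand are a further limit, since the strand setting of the counting is not given in the sources used here. CRY1 shares 1581 exon bases with TMEM263, CLOCK 3027 with TMEM165 and NR1D1 2985 with THRA, the thyroid hormone receptor gene, each on the opposite strand. THRA ran at 40.8 to 80.9 CPM, and its log2 CPM had a Pearson's r of 0.07 with that of NR1D1 over the 12 pigs. The same r was 0.53 for TMEM165 with CLOCK, 0.44 for MTERF2 and 0.52 for TMEM263 with CRY1.

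As a measure of spread, the SD of log2 CPM over the 12 pigs was 0.82 for DBP, 0.78 for NR1D1, 0.61 for CRY2, 0.59 for ARNTL, 0.53 for PER1, 0.44 for NR1D2, 0.41 for PER2, 0.26 for CRY1 and 0.22 for CLOCK. The median gene had an SD of 0.331, and 7 of 9 members lay above it. DBP and NR1D1 stood at the 88.2 and 87.0 percentiles of all genes tested, CRY1 and CLOCK at the 34.1 and 24.5 percentiles. The highest pig had 6.41 times the CPM of the lowest for DBP, 5.99 times for NR1D1, 4.84 times for ARNTL, 3.83 times for PER1, 3.50 times for CRY2, 3.17 times for NR1D2, 2.44 times for PER2 and 1.65 times for CRY1, beside 2.16 times for the median gene. These are descriptions of the 12 pigs, with no test. Within groups the SD was 0.85 for DBP and 0.78 for NR1D1, about as large as over all 12 pigs. Without pig 5 the SD was 0.48 for NR1D1, 0.59 for DBP and 0.28 for NR1D2, which then lay below the median gene at 0.33. Over the 6 pigs whose Y counts matched their label it was 0.35 for NR1D1, 0.70 for both DBP and CRY2 and 0.20 for NR1D2, beside 0.308 for the median gene, and 6 members instead of 7 lay above the median in either case.

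**Figure D2:**
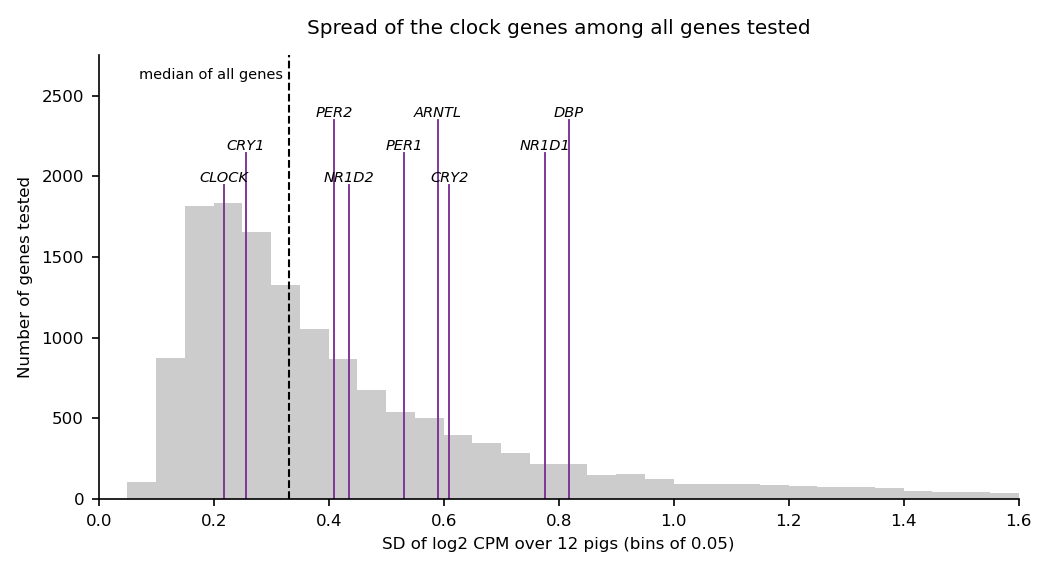
Number of genes tested by the SD of their log2 CPM over 12 pigs, in bins of 0.05, with purple lines at the 9 clock genes and a dashed line at the median of all genes, 0.331. DBP and NR1D1 lie far to the right at 0.82 and 0.78 and CLOCK and CRY1 to the left of the median, while 272 genes with an SD above 1.6 fall outside the axis.

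By Pearson's r over all 12 pigs, 3 pairs of clock genes varied together, the REV-ERB pair most closely. NR1D1 and NR1D2 had a Pearson's r of 0.899 over 12 pigs (permutation p = 0.00042, adjusted p = 0.0151 over 36 pairs) and a Spearman's rho of 0.692 (permutation p = 0.0154, adjusted p = 0.160). NR1D2 and DBP had an r of 0.806 (permutation p = 0.00264, adjusted p = 0.0317) and a rho of 0.615 (permutation p = 0.0375, adjusted p = 0.176). PER2 and CRY2, members of the same inhibitor complex, had an r of 0.798 (permutation p = 0.00225, adjusted p = 0.0317) and a rho of 0.685 (permutation p = 0.0178, adjusted p = 0.160). These were the 3 of 36 pairs that passed by r, all positive, and 0 pairs passed by rho, although 8 had an unadjusted p at or under 0.05. By rho the REV-ERB pair was not the closest. DBP with PER1 stood highest, with a rho of 0.741 (permutation p = 0.00767, adjusted p = 0.160) and an r of 0.579 (permutation p = 0.0505, adjusted p = 0.260).

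Leaving out pigs changed these values. With the 2 pigs farthest from the median of the first gene left out, r was 0.674 for NR1D1 and NR1D2 (without pigs 5 and 7, permutation p = 0.0328), 0.747 for PER2 and CRY2 (without pigs 2 and 8, permutation p = 0.0108) and 0.456 for NR1D2 and DBP (without pigs 3 and 5, permutation p = 0.188). Leaving out such pigs narrows the range of the first gene, and for NR1D2 and DBP the relation no longer passed an unadjusted p of 0.05. Without pig 5 alone the 3 r values were 0.716, 0.792 and 0.549 in the order REV-ERB pair, PER2 with CRY2, and NR1D2 with DBP, and 0 pairs passed after adjustment. Without the 6 pigs whose Y counts went against their label the values were 0.502, 0.826 and 0.380, and 0 of 36 pairs passed. Within groups the signs held, with an r of 0.93 in the high and 0.76 in the low IMF group for NR1D1 and NR1D2, 0.87 and 0.70 for NR1D2 and DBP, and 0.79 and 0.74 for PER2 and CRY2.

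Among all genes tested, NR1D2 ranked 2 of 14261 by its r with NR1D1, and NR1D1 ranked 1 for NR1D2. NR1D2 was rank 18 for DBP, DBP rank 28 for NR1D2, and CRY2 rank 151 for PER2. Besides NR1D2, the named genes with the highest r to NR1D1 over the 12 pigs were RND2 (0.918), RBMX2 (0.887), C16orf86 (0.883) and NCAPG (0.869). Those nearest to PER1 were TOB2 (0.955), PTOV1 (0.923), REEP2 (0.906), ZNF687 (0.899) and PIAS4 (0.897). Each list is the top of 14261 values and carries no test.

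Of the 11 pairs within an arm, ARNTL with CLOCK or 2 of the target genes, all 11 had a positive r, with a median of 0.472 and a range of 0.252 to 0.899. An r of at least 0.7 was reached by 4 of 36 pairs, the 3 above and PER1 with PER2 at 0.712 (permutation p = 0.00891, adjusted p = 0.0802), against 1.51% of all pairs of genes tested. Without the pigs whose Y counts went against their label, 6 of the 11 pairs were positive. ARNTL and CLOCK had an r of 0.472 (permutation p = 0.121, adjusted p = 0.427), which was 0.709 without pigs 5 and 12.

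The pairs named opposite-phase here, ARNTL or CLOCK against a target gene, did not run against each other as a class. The opposite phase described above is that of ARNTL, and the pairs of CLOCK are in the class by its definition alone. Of 10 such pairs, 4 had a negative and 6 a positive r, from -0.30 for CLOCK with PER2 to 0.56 for CLOCK with NR1D2, and 0 passed at an unadjusted permutation p of 0.05 by r. By rho, CLOCK with NR1D2 reached 0.699 (permutation p = 0.0144, adjusted p = 0.160), a positive relation. No pair of members had an r at or under -0.7, beside 1.29% of all pairs of genes. ARNTL had an r of -0.23 with NR1D1, -0.07 with NR1D2, 0.13 with DBP, 0.25 with PER1 and -0.24 with PER2. The adjusted permutation p-values of these ARNTL pairs were 0.710 to 0.913. CLOCK had an r of 0.46 with NR1D1, 0.56 with NR1D2, 0.23 with DBP, 0.22 with PER1 and -0.30 with PER2.

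ARNTL pairs differed in sign between the groups. In the 6 high IMF pigs r was -0.79 with NR1D1, -0.70 with NR1D2, -0.65 with DBP, -0.41 with PER1 and -0.50 with PER2. In the 6 low IMF pigs it was 0.44, 0.90, 0.88, 0.84 and 0.11 in the same order. The difference, tested after these values were seen by an exact two-sided permutation of the group labels on group-centred values, had p = 0.0390 for NR1D1, p = 0.0108 for NR1D2, p = 0.134 for DBP, p = 0.0281 for PER1 and p = 0.450 for PER2. None of the 10 opposite-phase pairs passed after adjustment, the lowest adjusted p being 0.108. Without pigs 5 and 12, the highest and the lowest for ARNTL, the r over the other 10 pigs was 0.51 with NR1D1, 0.60 with NR1D2, 0.55 with DBP, 0.39 with PER1 and 0.12 with PER2. Pig 5 alone had the highest level of ARNTL and the lowest of NR1D1, NR1D2, DBP and PER2. Without the pigs whose Y counts went against their label, 4 of the 10 opposite-phase pairs were negative and the r of ARNTL with DBP was 0.90 over 6 pigs.

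**Figure D3:**
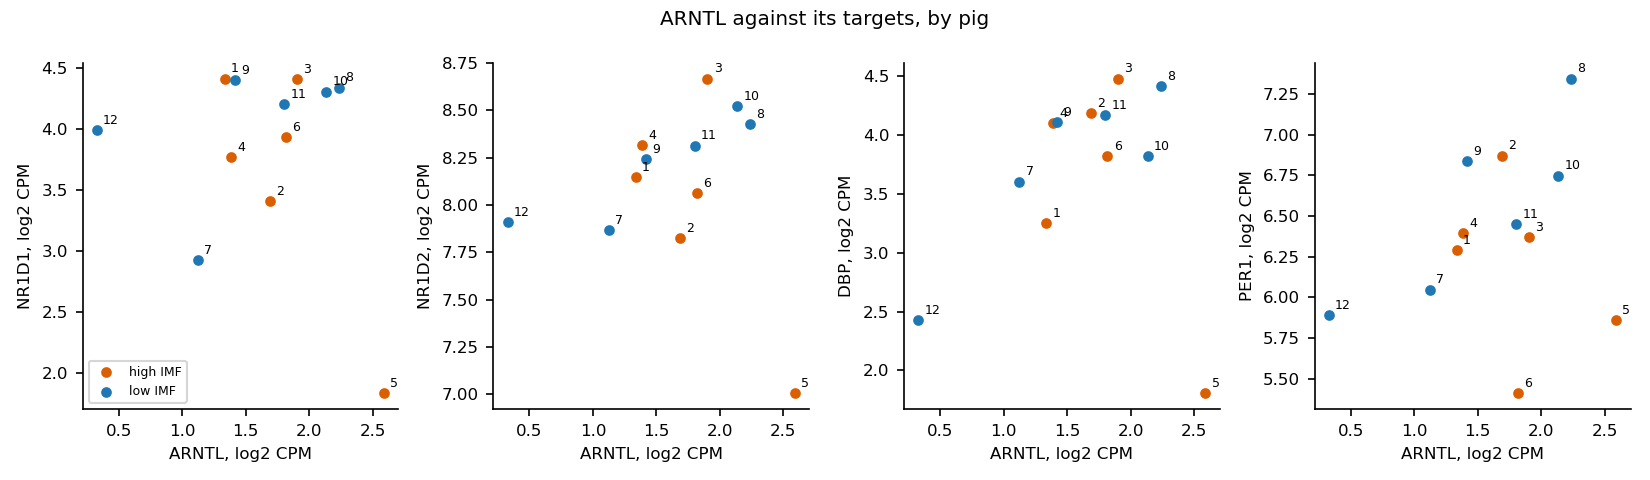
Log2 CPM of ARNTL on the horizontal axis against NR1D1, NR1D2, DBP and PER1 on the vertical axes, each point being 1 pig with its number, high IMF in orange and low IMF in blue. Pig 5 lies alone at the lower right in the first 3 panels, and the low IMF pigs run from lower left to upper right, with r from 0.44 to 0.90.

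**Figure D4:**
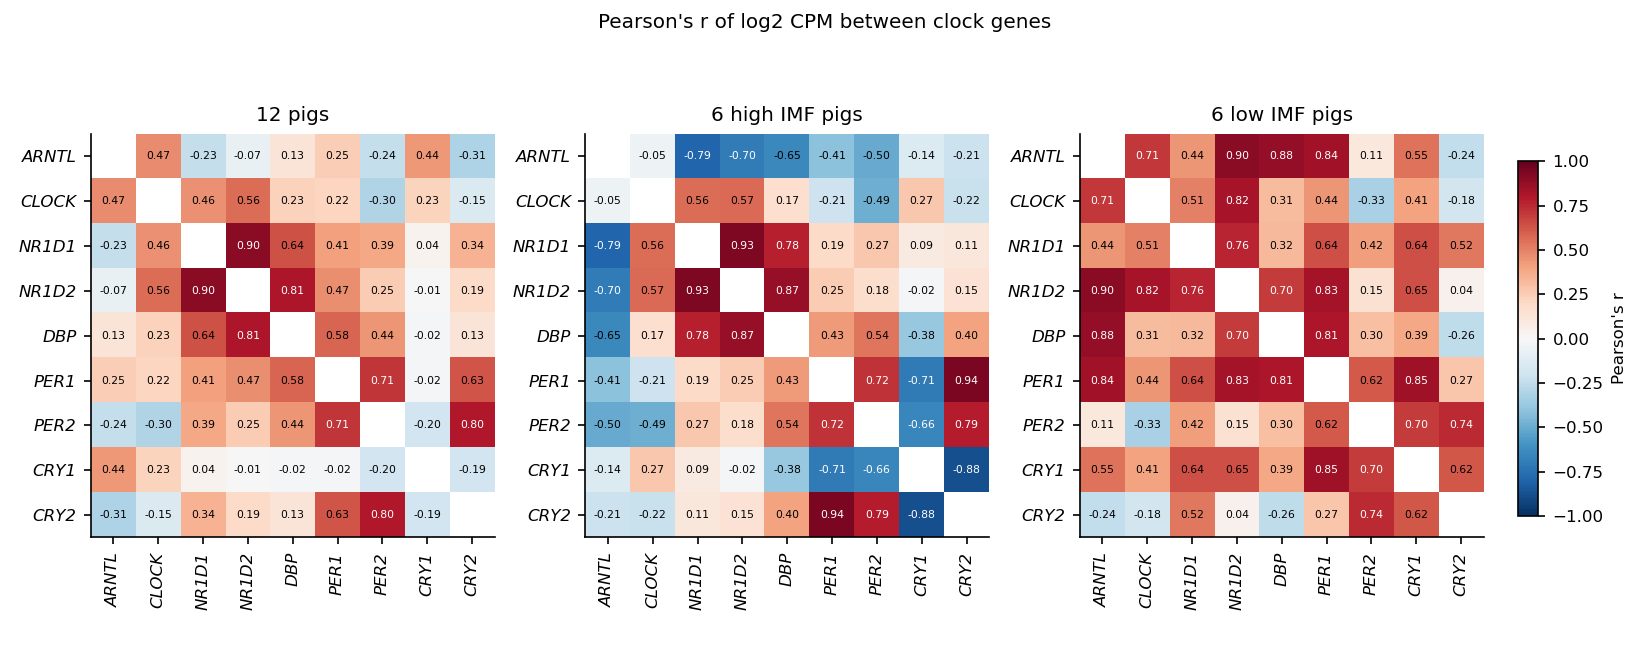
Pearson's r of log2 CPM for each pair of the 9 genes, over 12 pigs, the 6 high IMF pigs and the 6 low IMF pigs, with blue for negative and red for positive r. The row of ARNTL turns from mostly negative in the high IMF pigs to mostly positive in the low IMF pigs, while NR1D1, NR1D2 and DBP stay positive with each other.

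The cryptochromes differed in their relations to the other members. CRY1 and CRY2 had an r of -0.19 over 12 pigs, -0.88 in the high and 0.62 in the low IMF group, and PER1 with CRY1 had -0.02, -0.71 and 0.85 in the same order. PER1 with CRY2 had 0.63 (permutation p = 0.0284, adjusted p = 0.204), 0.94 and 0.27. The 36 pairs had the same sign in both groups in 22 cases, 10 of them among the 11 pairs within an arm and 4 among the 10 opposite-phase pairs. The groupwise values rest on 6 pigs each and are given with no test.

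The genes nearest to ARNTL were neither members nor on the list of the wider clock. By r over the 12 pigs the highest with a symbol were OTUD1 (0.907), TRIB1 (0.848), SPATS2 (0.835), EIF4A2 (0.826) and GAREM2 (0.825), and the lowest were SUSD5 (-0.892), MYBL1 (-0.872), CCDC80 (-0.866), ADAMTS2 (-0.846) and ELN (-0.839). ELN encodes elastin and ADAMTS2 an enzyme that trims procollagen. An r of at least 0.7 with ARNTL was reached by 0.582% of genes tested, and one at or under -0.7 by 0.736%, and no member was among either. The matrix gene COL1A1 ran from 75.1 CPM in pig 5, highest for ARNTL, to 428.1 CPM in pig 12, lowest for ARNTL, and the smooth muscle gene MYH11 had 135.2 CPM in pig 12 and at most 34.7 CPM in the others. The 5 fibro-adipogenic markers, COL1A1 among them, summed to 391.7 CPM in pig 5 and 792.7 CPM in pig 12, the ends of their range. Their r with ARNTL over the 12 pigs was -0.81 for COL1A1, -0.43 for PI16, -0.34 for LUM, -0.19 for DCN and -0.03 for PDGFRA. The 3 smooth muscle and pericyte markers summed to 306.7 CPM in pig 12, the top of their range, and to 251.8 CPM in pig 5. For these, r with ARNTL was -0.82 for MYH11, -0.44 for CNN1 and 0.18 for RGS5. The part of these cells in the level of ARNTL was not tested.

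Between the IMF groups, no clock gene passed the study's thresholds, a size of log2FC (low over high IMF) from 0.58 upward together with an adjusted p no higher than 0.05. By these, edgeR's quasi-likelihood test called 0 of 9 members and 0% of 14262 genes (0 genes), and 1 member and 10.4% of genes had an unadjusted p no higher than 0.05. DESeq2's Wald test, run on all genes with at least 1 count, called 65 of the genes given an adjusted p (0.39%) and 0 members. In no member did the 2 groups fail to overlap, which 0.659% of genes tested showed.

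CRY1 was the member past the unadjusted threshold. Its level was 13.6 ± 1.13 against 10.9 ± 1.91 CPM in high and low IMF pigs (SD, n = 6 each). Its log2FC was -0.33 (SE 0.12, edgeR adjusted p = 0.427, exact permutation p = 0.0173), and the unadjusted edgeR p was 0.0158. Pig 8 of the low IMF group lay among the high IMF pigs and the other 5 low IMF pigs lay below all of them. The exact two-sided permutation test over the arrangements of 6 against 6 pigs was run on the difference in mean log2 CPM. It put 10.3% of all genes at or under 0.05, so 1 of 9 members is near the share of all genes. Without the pigs whose Y counts went against their label the log2FC was -0.49 (edgeR adjusted p = 0.998).

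CRY2 had 78.8 ± 31.4 against 113 ± 44.8 CPM in the high and low IMF groups (SD, n = 6 each) and a log2FC of 0.52 (SE 0.29, edgeR adjusted p = 0.558). PER1 had 77.1 ± 25.5 against 99.5 ± 37.8 CPM (SD, n = 6 each) and a log2FC of 0.37 (SE 0.26, edgeR adjusted p = 0.651). PER2 had 11.9 ± 4.06 against 14.8 ± 3.69 CPM (SD, n = 6 each) and a log2FC of 0.32 (SE 0.21, edgeR adjusted p = 0.620). These differences were within the spread between pigs. Without pig 2, the highest high IMF pig for all 3 genes, the unadjusted edgeR p was 0.00848 for PER2 and 0.0184 for CRY2, with adjusted values of 0.232 and 0.276, and 3 members instead of 1 were past 0.05. Without the pigs whose Y counts went against their label the log2FC was -0.13 for PER1, -0.01 for PER2 and 0.46 for CRY2.

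By the log2FC of edgeR, the activators and the REV-ERB genes differed least between the groups. By the difference in mean log2 CPM, low minus high IMF, NR1D1 at 0.40 stood above PER1 at 0.35 and PER2 at 0.34. ARNTL had 3.59 ± 1.28 against 3.10 ± 1.33 CPM in the high and low IMF groups (SD, n = 6 each), a log2FC of -0.21 (SE 0.30, edgeR adjusted p = 0.843), and CLOCK had a log2FC of 0.04 (SE 0.13, edgeR adjusted p = 0.940). The log2FC was 0.27 for NR1D1 (SE 0.35, edgeR adjusted p = 0.828), 0.15 for NR1D2 (SE 0.22, edgeR adjusted p = 0.854) and 0.06 for DBP (SE 0.38, edgeR adjusted p = 0.975). Without pig 5 the log2FC was -0.0038 for ARNTL, 0.066 for NR1D1, 0.0012 for NR1D2 and -0.15 for DBP. For ARNTL, CRY2, NR1D1 and DBP the threshold of 0.58 lay less than 2 standard errors from 0.

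**Figure D5:**
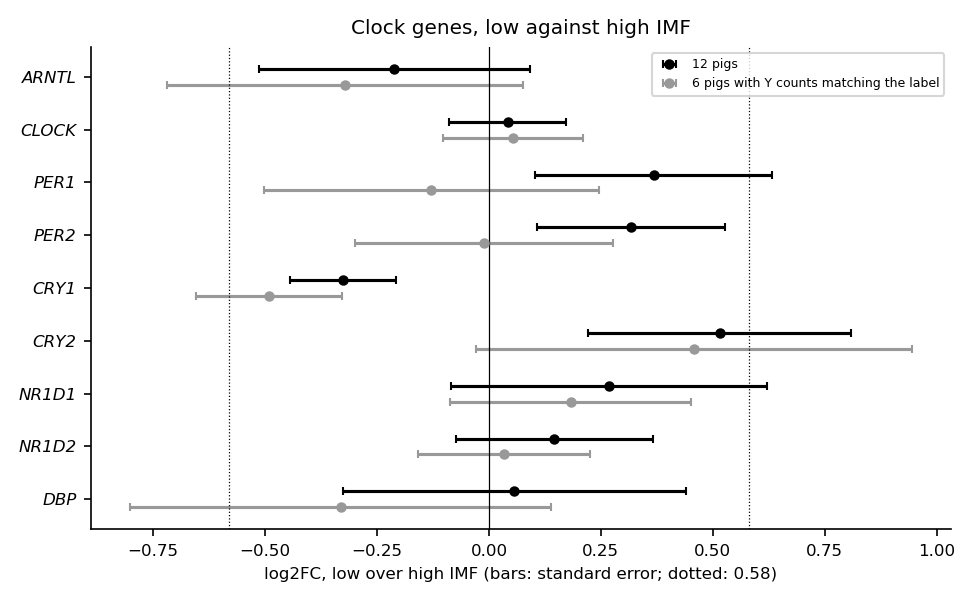
Log2FC of the 9 clock genes, low over high IMF, with bars of 1 standard error, in black for all 12 pigs and in grey for the 6 pigs whose Y counts matched their label. CRY1 lies left of 0 in both, PER1, PER2 and DBP change side, and no gene was called.

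The wider clock, fixed as a list of 21 regulators and output genes, had identifiers for 19 (not ARNTL2 and FBXL21), and edgeR called 0 of 19. An unadjusted p no higher than 0.05 was seen in 4, beside 10.4% of all genes, and low IMF pigs had the higher level in 3. CSNK1D, a kinase that marks PER proteins for breakdown, had 13.6 ± 2.39 against 17.6 ± 2.09 CPM in the high and low IMF groups (SD, n = 6 each) and a log2FC of 0.38 (edgeR adjusted p = 0.427). USP2, a ubiquitin protease, had a log2FC of 0.42 (edgeR adjusted p = 0.427), and TIMELESS, at 0.441 CPM in the median pig, had 1.17 (edgeR adjusted p = 0.434). NFIL3, the repressor that competes with DBP at D-boxes, was at 8.76 to 52.7 CPM in the high and 6.92 to 17.1 CPM in the low IMF pigs, for a log2FC of -1.06 (edgeR adjusted p = 0.435). The list's median log2FC was 0.15, beside -0.01 for all genes tested.

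Among the other PAR bZIP factors, relatives of DBP, HLF had an r of 0.80 and TEF of 0.78 with PER1 over the 12 pigs, and CSNK1E, the other casein kinase, had 0.86. These were the highest of the 19 genes of the wider clock list, of which 14 had a positive and 5 a negative r. The median r of the list with PER1 was 0.40, and its range was -0.65 to 0.86. Beside them, PER2, with an r of 0.712 to PER1, ranked 261 among all genes tested. These values are descriptions over 12 pigs.

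Lists of genes that hormones, fasting and handling are known to move were looked at beside the clock. Of 11 genes that answer to glucocorticoids or fasting, 10 were tested, and edgeR called 0 of them. An unadjusted p no higher than 0.05 was seen in 5, with 3 higher in the low and 2 in the high IMF group, beside 10.4% of all genes. Of 8 immediate early genes, 7 were tested, 0 were called, and 3 had an unadjusted p no higher than 0.05, each higher in the high IMF group, beside the same 10.4% of all genes. The r with PER1 was positive for 4 and negative for 6 of the 10 glucocorticoid or fasting genes, from -0.54 to 0.74, and positive for 3 and negative for 4 of the 7 immediate early genes, from -0.51 to 0.51. The highest values were those of KLF15 (0.74) and ZBTB16 (0.72). The part of slaughter conditions in the level of PER1 was not tested.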

How the data were processed

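Semimembranosus muscle RNA of 12 pigs, 6 with high and 6 with low IMF by the labels, had been sequenced as stranded polyadenylated libraries. The authors used Trimmomatic for trimming, HISAT2 for alignment to the Sscrofa11.1 genome and HTSeq for counts per Ensembl gene. They deposited whole-number counts per gene and pig, not normalized. The handling of reads with several alignments is not given in the sources used here.

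Counts were normalized by TMM and compared by edgeR's quasi-likelihood test (edgeR 4.0.16, R 4.3.3) on genes kept by filterByExpr, with the group as the only term and Benjamini-Hochberg adjustment over 14262 genes. The log2FC is low over high IMF. Log2 CPM used a prior count of 2. Correlations over 12 pigs used two-sided permutation tests with 100000 resamples, adjusted over 36 pairs. Both procedures were tested on simulated data. Alternatives included DESeq2 1.42.0 and limma-voom (limma 3.58.1), and other normalizations and filters. Positions and promoter sequences were read from RefSeq with pysam 0.24.0 (Python 3.11.15), and the gene name table gave 14857 symbols. Counting error, if counts are taken as separate fragments, is small at this depth beside the common biological coefficient of variation, 0.332. The p-values measure the spread between these pigs. The named genes were the members, the wider clock list, the genes most and least correlated with ARNTL and most with NR1D1 and PER1, and genes whose exons overlap a member's. From the glucocorticoid and immediate early lists, counts and the genes most correlated with PER1 are given. HBB, MYH11, COL1A1, the other named markers and the Y chromosome genes were named from the marker lists or after their values were seen. The members and lists were chosen with earlier results of these data known. A gene of the wider clock list is not reported here by name and stays in the counts over the list.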

Additional observations from a re-analysis of the deposited data

Results flagged for a closer look

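In 18 groups of 6 pigs, 9 genes in each IMF group, 2 held a pig far from the others by Dixon's criterion, which chance alone meets in about 1 of 20 groups. PER2 was at 19.8 CPM in pig 2, the highest pig of the high IMF group, where the next pig had 11.8 CPM. ARNTL was at 6.01 CPM in pig 5, also of the high IMF group, where the next pig had 3.72 CPM.

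The r of ARNTL with a target gene differed between the groups in 3 of 10 opposite-phase pairs before adjustment. The permutation test, on the difference in Fisher's z, was chosen after the values were seen. The r in the low minus the r in the high IMF group was 1.24 with NR1D1, 1.598 with NR1D2 and 1.25 with PER1. The same difference in Fisher's z was 1.56 with NR1D1 (permutation p = 0.0390), 2.33 with NR1D2 (permutation p = 0.0108) and 1.66 with PER1 (permutation p = 0.0281). The adjusted p-values over 10 pairs were 0.130, 0.108 and 0.130, so 0 pairs passed. Over the 11 pigs without pig 5, whose Y counts went against its label, r was 0.34 with NR1D1 and 0.63 with NR1D2.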

How the results depend on the processing

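The count of clock genes called against IMF stayed at 0 in each of 23 alternatives. DESeq2 called 59 of 14223 genes on those edgeR tested and 65 of 16685 on all genes with at least 1 count. Each other alternative called 0 or 1 of all its genes, so a count of 0 there says little about the members. The count at an unadjusted p no higher than 0.05 was 2 with labelled sex as a covariate and 1 to 3 with each pig left out, the 3 without pig 2 and 2 without pig 7 or pig 11. The log2FC was -0.13 for PER1, -0.011 for PER2 and -0.33 for DBP without the pigs whose Y counts went against their label, a comparison of 4 high and 2 low IMF pigs. With each pig left out it ran from -0.066 (without pig 10) to 0.10 for CLOCK and from -0.15 (without pig 5) to 0.24 for DBP, which was also negative without pig 1, 8 or 11. The other 5 genes kept their direction in each alternative, but without pig 5 the log2FC was close to 0 for ARNTL (-0.0038), NR1D2 (0.0012) and NR1D1 (0.066), and without pig 12 it was -0.039 for ARNTL.

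The count of pairs that passed was 0 by Spearman's rho, 1 with group-centred values, 0 without the pigs of doubtful label, and 0 to 4 with each pig left out, being 0 without pig 5 or 7, 1 without pig 4, 6, 8, 9 or 11 and 4 without pig 12. Negative opposite-phase pairs numbered 2 by rho, 7 in the high and 1 in the low IMF pigs, 1 without the 2 farthest pigs, and 1 (without pig 5) to 5 with each pig left out. The count of members with an SD above the median gene, 7, was 6 without the pigs of doubtful label, an alternative chosen after the data were seen. Positive pairs within an arm numbered 6 without the pigs of doubtful label.

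The sign of several ARNTL pairs turned. By rho it was 0.014 with NR1D1 and 0.28 with NR1D2, and without the pigs of doubtful label r was 0.33 with NR1D2. In the high IMF pigs r was -0.054 with CLOCK, -0.65 with DBP, -0.41 with PER1 and -0.14 with CRY1. In the low IMF pigs it was 0.44 with NR1D1, 0.90 with NR1D2 and 0.11 with PER2. Without pigs 5 and 12 it was 0.51 with NR1D1, 0.60 with NR1D2, 0.12 with PER2 and 0.22 with CRY2. With each pig left out it ran from -0.38 to 0.34 (without pig 5) with NR1D1, from -0.25 to 0.63 (without pig 5) with NR1D2, from -0.34 (without pig 12) to 0.82 with DBP, from -0.47 to 0.015 (without pig 5) with PER2 and from -0.45 to 0.00305 (without pig 12) with CRY2. The cause of these changes was not tested.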
